A study of Mus musculus with 12 samples.

Results

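Free doxorubicin (Dox) was compared with phosphate-buffered saline (PBS) in tumours that C26 cells, a mouse colon carcinoma line, formed under the skin, by setting the 4 arrays of tumours given Dox against the 4 arrays of tumours given PBS. These were 8 of the 12 arrays of the study, and the other 4 came from tumours given CP-Dox, doxorubicin carried on a chimeric polypeptide. All mice were Balb/c, 6 weeks old, and carried their tumour on the dorsal flank. Treatment was given 8 days after inoculation, at a tumour size of about 50 mm3, and the tumours were removed 48 h later. Each array held RNA of 1 mouse's tumour. The sources used here do not state how much drug was given. No group received the polypeptide carrier without drug.

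Doxorubicin intercalates into DNA and traps topoisomerase II on it, which leaves broken DNA strands. Broken DNA activates the transcription factor p53, whose targets stop the cell cycle (Cdkn1a), limit p53 itself (Mdm2, Ccng1) or promote cell death (Pmaip1). A solid tumour also holds blood, vessels, immune cells and connective tissue, and circulating doxorubicin reaches the bone marrow, where red cells are made. Red cells are filled with haemoglobin, which is built from alpha and beta globin chains and from haem. Young red cells, the reticulocytes, still carry globin RNA.

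Signals are log2 values from RMA, and a difference of 1 between them stands for a 2-fold change. Differences are Dox minus PBS ± the standard error from limma, with n = 4 tumours in each group. Rose and fell are used only for an adjusted p under 0.05 (limma, two-sided, Benjamini-Hochberg over the 22626 probe sets tested), and higher or lower for other differences. In whole tumours, fewer cells of a type and less RNA per cell cannot be told apart. The correlation between arrays lay between 0.978 and 0.9952, and the median standard error of a difference was 0.12. The epithelial keratin Krt8 had mean signals of 10.31 in PBS and 10.65 in Dox and Krt18 of 8.20 in PBS and 7.86 in Dox. Other epithelial or colon markers had low signals, with means of 5.90 in PBS and 5.68 in Dox for Epcam, 5.54 in PBS and 5.55 in Dox for Cdh1 and 4.40 in PBS and 4.47 in Dox for Vil1. No detection calls were used, so that presence or absence could not be read from such signals. All 20 skeletal muscle markers were lower in Dox (median -1.41, none past the threshold), and their mean over the PBS level was high in PBS replicates 3 (2.96) and 4 (1.38) and Dox replicate 2 (1.38) and between -2.23 and -2.08 in the other 5 tumours. Leaving out those 3 arrays kept Dox replicates 1, 3 and 4 and PBS replicates 1 and 2. Calls so lost or gained are given beside their values.

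Adult globin and Alas2 RNA fell in the Dox tumours, and no other gene passed the threshold. Of the 22626 probe sets, 7 fell (0.0309%) and 0 rose (0%), and all 7 detect adult alpha globin, adult beta globin or Alas2, the enzyme of the first step of haem synthesis in red cell precursors. The falls were between 2.63-fold and 19.0-fold, and in each of the 7 the highest Dox tumour lay below the lowest PBS tumour. The Dox means of Alas2 and of the Hbb-b2 probe sets were low, at 5.15, 5.08 and 4.41, and whether they lay above background was not tested, so that these 3 folds may understate the decrease. At an unadjusted p under 0.05, limma gave 636 higher (2.81%) and 664 lower probe sets (2.93%). The lowest adjusted p of a probe set higher in Dox was 0.27.

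**Figure D1:**
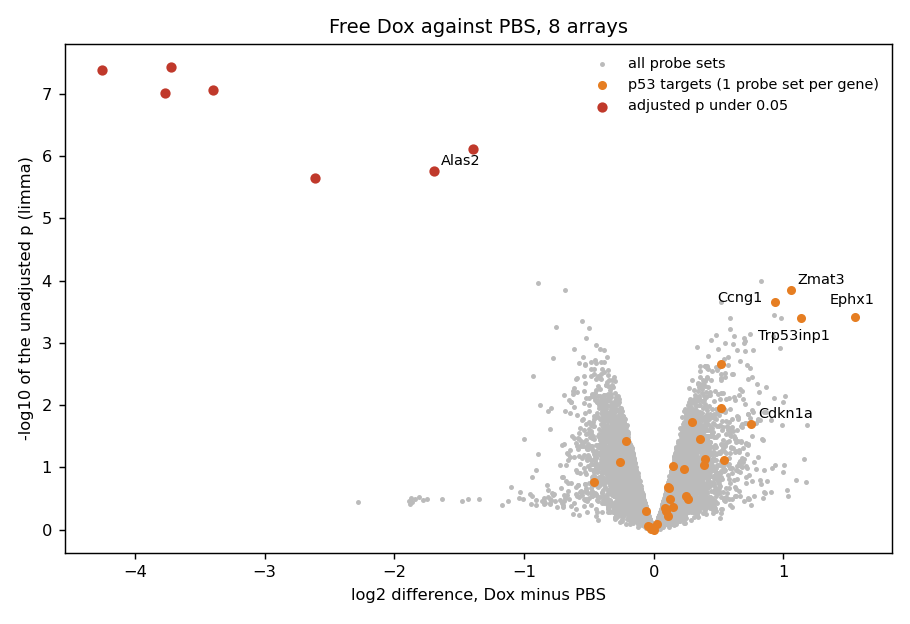
Each point is 1 probe set: the x axis is the log2 difference of Dox minus PBS and the y axis is -log10 of the unadjusted limma p, over 8 arrays. The 7 red points, all on the left, are the probe sets past the threshold; the orange points are p53 targets, of which Zmat3, Ccng1, Ephx1 and Trp53inp1 lie highest on the right without passing it.

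The bases before the start of these genes are shown because probe sets annotated to them fell. Globin promoters are also known for motifs of erythroid factors. Within the 250 bases upstream of each start (RefSeq, GRCm38.p6), capitals mark GATAA (bound by GATA factors), CCAAT and CACCC (bound by Krüppel-like factors), each on either strand. The windows are chr11:32283422-32283671 (plus strand) for Hba-a1, chr7:103827929-103828178 (minus strand) for Hbb-bs, chr7:103813924-103814173 (minus strand) for Hbb-bt and chrX:150547167-150547416 (plus strand) for Alas2, each printed 5′ to 3′ along its gene.
Hba-a1: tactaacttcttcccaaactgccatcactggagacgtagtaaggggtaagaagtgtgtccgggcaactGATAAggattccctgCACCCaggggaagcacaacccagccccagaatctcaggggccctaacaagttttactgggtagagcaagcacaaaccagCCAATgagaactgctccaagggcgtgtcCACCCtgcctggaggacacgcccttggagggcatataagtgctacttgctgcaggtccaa
Hbb-bs: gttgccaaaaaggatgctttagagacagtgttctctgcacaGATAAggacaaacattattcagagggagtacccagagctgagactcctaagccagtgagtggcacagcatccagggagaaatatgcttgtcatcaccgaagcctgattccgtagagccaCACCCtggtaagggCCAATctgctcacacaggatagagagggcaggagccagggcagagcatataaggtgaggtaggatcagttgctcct
Hbb-bt: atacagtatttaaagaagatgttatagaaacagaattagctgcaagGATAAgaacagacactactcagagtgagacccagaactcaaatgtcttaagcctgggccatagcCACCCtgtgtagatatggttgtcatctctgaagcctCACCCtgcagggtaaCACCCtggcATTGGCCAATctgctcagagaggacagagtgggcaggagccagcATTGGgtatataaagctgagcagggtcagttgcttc
Alas2: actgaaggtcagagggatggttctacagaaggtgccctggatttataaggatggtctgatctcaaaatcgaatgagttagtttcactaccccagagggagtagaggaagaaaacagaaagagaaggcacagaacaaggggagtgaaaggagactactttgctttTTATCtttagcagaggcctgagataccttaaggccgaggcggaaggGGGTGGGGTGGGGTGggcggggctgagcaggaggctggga
All of the adult globin windows, including that of Hba-a2, held the 3 motifs, and the Hba-a2 window shared 247 bases with that of Hba-a1 when shifted to fit. The Alas2 window held GATAA and CACCC but no CCAAT. Of 32851 windows of the same length, 22.6% held GATAA, 33.8% CCAAT, 52.0% CACCC and 3.45% all 3, so that a match by itself is common and is no evidence of binding. The sequence is that of the reference strain, whose adult beta globin genes are Hbb-bs and Hbb-bt, whereas Balb/c mice carry another beta globin haplotype with genes named Hbb-b1 and Hbb-b2.

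Alpha globin was measured by 3 probe sets annotated to both Hba-a1 and Hba-a2, which they cannot tell apart. These and the shared beta globin probe set carry several gene symbols and were singled out after their values were seen. Probe set 1417714_x_at read 7.25, 6.54, 6.98 and 7.57 in Dox replicates 1 to 4 and 10.80, 11.54, 11.09 and 11.90 in PBS replicates 1 to 4. The groups lay more than 3 units apart at their nearest tumours, and the signal fell by 4.25 ± 0.27 (adjusted p = 0.00047, limma), a 19.0-fold decrease. Probe set 1452757_s_at read 9.78, 8.86, 9.41 and 10.10 in Dox and 12.94, 13.49, 13.10 and 13.69 in PBS, and fell by 3.77 ± 0.26. Probe set 1428361_x_at read 9.17, 8.56, 9.05 and 9.56 in Dox and 12.41, 12.99, 12.59 and 13.23 in PBS, and fell by 3.72 ± 0.23. In all 3, Dox replicate 2 was the lowest tumour and Dox replicate 4 the highest of the treated ones, still below every PBS tumour.

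Adult beta globin fell in each of its probe sets. Probe set 1417184_s_at, annotated to Hbb-bt, Hbb-bs, Hbb-b2 and Hbb-b1 together, read 9.70, 9.14, 9.62 and 10.08 in Dox and 12.58, 13.20, 12.85 and 13.50 in PBS. It fell by 3.40 ± 0.23 (adjusted p = 0.00055, limma), a 10.5-fold decrease. Hbb-b2 alone was annotated to 1427866_x_at, which read 4.33, 4.11, 4.57 and 4.61 in Dox and 6.45, 6.83, 6.96 and 7.82 in PBS and fell by 2.61 ± 0.26 (adjusted p = 0.0072). The Dox tumours were close to each other, while PBS replicate 4 stood above the other PBS tumours. The other Hbb-b2 probe set, 1427865_at, read 5.01, 5.04, 5.09 and 5.16 in Dox and 6.23, 6.72, 6.63 and 6.31 in PBS and fell by 1.40 ± 0.12 (adjusted p = 0.0035).

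Alas2 (1451675_a_at) read 5.22, 5.11, 5.07 and 5.20 in Dox and 6.52, 7.15, 6.55 and 7.17 in PBS. No tumour overlapped between the groups, and Alas2 fell by 1.70 ± 0.16 (adjusted p = 0.0064, limma), a 3.24-fold decrease. In the list of 8 measured red cell and platelet genes, 1 fell (Alas2), 0 rose and 7 did not pass, and the median was -0.08 against 0.004 over all 12393 genes with a probe set of 1 symbol. The list takes Hba-a1 from 1453574_at, a probe set with low signal in both groups (means of 5.11 in Dox and 5.11 in PBS). Another low probe set, 1427219_at for Hba-a2, differed by 0.04.

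**Figure D2:**
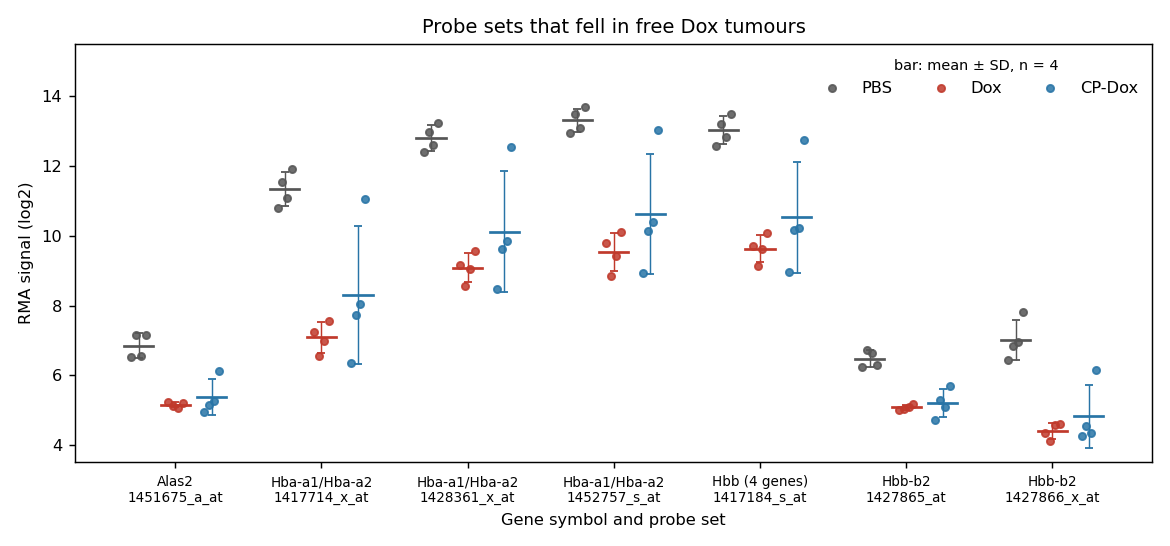
RMA signal on a log2 scale (y axis) of the 7 probe sets that fell, by gene and probe set (x axis), for 4 PBS, 4 Dox and 4 CP-Dox tumours; points are tumours, bars the mean and whiskers the SD. Every Dox tumour lies below every PBS tumour, and CP-Dox replicate 4 stands apart from the other CP-Dox tumours, at 11.06 for Hba-a1/Hba-a2 in 1417714_x_at.

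Other genes of red cells did not move as a group, but many of them had low signals. A list of 24 genes of red cell precursors and membranes, added after the values were seen, had 11 members below 0 and 13 above, with a median of 0.01, and none passed the threshold. The erythroid transcription factors Gata1 and Klf1 differed by 0.11 ± 0.11 and -0.02 ± 0.12, and Slc4a1, the anion exchanger of the red cell membrane, by -0.19 ± 0.14. Means in Dox and PBS were 6.06 and 5.96 for Gata1, 6.08 and 6.10 for Klf1 and 5.45 and 5.64 for Slc4a1. Whether such signals lay above background was not tested, so that a decrease could go unseen in them. Fech and Urod, of haem synthesis, had means of 9.36 and 9.17 in Dox and differed by -0.03 and -0.16. The transferrin receptor Tfrc, which takes up iron in red cell precursors and in dividing cells, was lower by 0.69 ± 0.20. Of the embryonic globins, Hbb-y (1450621_a_at) differed by 0.09, Hbb-bh1 (1437810_a_at) by 0.07 and Hba-x by -0.09. Among platelet genes, Pf4, a platelet chemokine, was lower by 0.71 ± 0.30 (adjusted p = 0.866, limma), while Ppbp, Itga2b and Gp9 differed by -0.15, 0.18 and 0.14.

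The 7 falls kept their direction in each setting in which they were tested, but their calls rested on the spread of these 8 arrays. In a fit over all 12 arrays, 0 probe sets passed, with adjusted p between 0.123 and 0.38 for the 7 (limma). The CP-Dox tumours varied widely in globin: 1417714_x_at read 6.35, 7.72, 8.05 and 11.06 in CP-Dox replicates 1 to 4, so that replicate 4 lay within the PBS range and the others below it. Without the 3 arrays of high muscle signal, the 4 probe sets with several symbols and Hbb-b2 (1427866_x_at) still fell, while Hbb-b2 (1427865_at) and Alas2 reached adjusted p of 0.0829 and 0.0826. Without Dox replicate 1, 6 of the 7 passed, and Hbb-b2 (1427866_x_at) reached an adjusted p of 0.0554.

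No p53 target passed the threshold, yet the probe sets with the lowest p among those higher in Dox included several of them. The rule for named genes gave 10 genes higher in Dox, all without overlap between the groups, with differences between 0.52 and 1.55 and adjusted p between 0.27 and 0.67. Among all probe sets, 370 (1.64%) had every Dox tumour above every PBS tumour, and 484 (2.14%) the reverse. The rule chose by lowest p, which itself favours genes without overlap. The 10 were Ccng1, Zmat3, Ephx1, Trp53inp1, Lamp2, Vldlr, Cd80, Rassf5, Dram2 and Vegfd, of which the first 4 stand in the p53 lists.

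Ephx1, microsomal epoxide hydrolase, had the largest difference of the 10. It read 9.86, 9.09, 9.45 and 9.21 in Dox and 7.31, 7.38, 8.14 and 8.58 in PBS, higher by 1.55 ± 0.29 (2.93-fold, adjusted p = 0.504, limma). The PBS tumours formed a low pair, replicates 1 and 2, and a higher pair, replicates 3 and 4, which also carried the high muscle signal. Without the 3 arrays of high muscle signal the difference was 2.16 ± 0.19 and passed (adjusted p = 0.0262, limma), the only rise in that setting. That setting kept only Dox replicates 1, 3 and 4 and PBS replicates 1 and 2. It thereby dropped the lowest Dox tumour and the higher PBS pair, which by itself widens the difference. Over the settings run the adjusted p of Ephx1 ranged from 0.0262 to 0.999.

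Ccng1, cyclin G1, which acts in a feedback loop with Mdm2, was higher in Dox in each of its 3 probe sets, by 0.76, 0.83 and 0.94. Probe set 1450017_at had the lowest p of any named gene higher in Dox and read 10.51, 10.22, 10.41 and 10.16 in Dox and 9.18, 9.57, 9.59 and 9.66 in PBS. Its difference was 0.83 ± 0.13 (adjusted p = 0.27, limma), and the lowest Dox tumour lay above the highest PBS tumour. Zmat3, a p53-induced RNA-binding zinc finger protein, read 9.34, 9.71, 9.10 and 9.02 in Dox and 8.52, 8.22, 8.29 and 7.93 in PBS, higher by 1.05 ± 0.17 (adjusted p = 0.291). Trp53inp1, a nuclear protein induced by p53, read 8.77, 8.14, 8.01 and 8.00 in Dox and 7.19, 6.70, 6.95 and 7.52 in PBS, higher by 1.14 ± 0.21 (adjusted p = 0.504). Its second probe set differed by 0.07. The Zmat3 and Trp53inp1 groups did not overlap either.

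The most familiar targets of p53 overlapped between the groups. Cdkn1a, the p21 inhibitor of cyclin-dependent kinases, read 10.78, 10.64, 10.37 and 10.19 in Dox and 10.18, 10.32, 9.28 and 9.19 in PBS. PBS replicate 2 lay above Dox replicate 4 and below the other Dox tumours, and the difference was 0.75 ± 0.27 (adjusted p = 0.866, limma), with 0.80 in the other probe set. Mdm2, the ubiquitin ligase that degrades p53, read 9.52, 8.86, 8.91 and 8.38 in Dox and 8.86, 8.68, 7.96 and 8.02 in PBS, higher by 0.54 ± 0.27 (adjusted p = 0.867). Pmaip1, which encodes the death protein Noxa, read 6.23, 5.97, 6.17 and 6.72 in Dox and 6.67, 6.46, 5.94 and 6.12 in PBS, and the difference of -0.03 ± 0.20 had a 95% interval from -0.47 to 0.41. No probe set with a single symbol was found for Bax.

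Over the 22 measured p53 targets of arrest, repair and feedback, 0 rose or fell, 18 were above 0, and the median was 0.13 against 0.004 over all genes. In 5 of the 22 every Dox tumour lay above every PBS tumour, compared with 213 of all 12393 genes. Besides Ccng1, Zmat3, Ephx1 and Trp53inp1 this was Phlda3, an inhibitor of Akt signalling, at 0.52 ± 0.12. The lists were chosen with earlier results of these data known, so that these shares are no independent test. Sesn2, a stress-induced sestrin, was higher by 0.52 ± 0.16, while Btg2 differed by 0.003 and Gadd45a by -0.46 with a wide interval. The list mean over the PBS level was 0.62, 0.27, 0.37 and 0.12 in Dox replicates 1 to 4 and 0.13, -0.05, -0.06 and -0.02 in the PBS tumours, so that Dox replicate 4 lay just below the highest PBS tumour. Of the 11 measured targets that promote cell death, 7 were above 0, with a median of 0.15. Fas, a death receptor, was higher by 0.39 ± 0.19, Apaf1, the apoptosome scaffold, by 0.36 ± 0.15, and Aen, an apoptosis-enhancing nuclease, by 0.30 ± 0.10, and none passed.

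**Figure D3:**
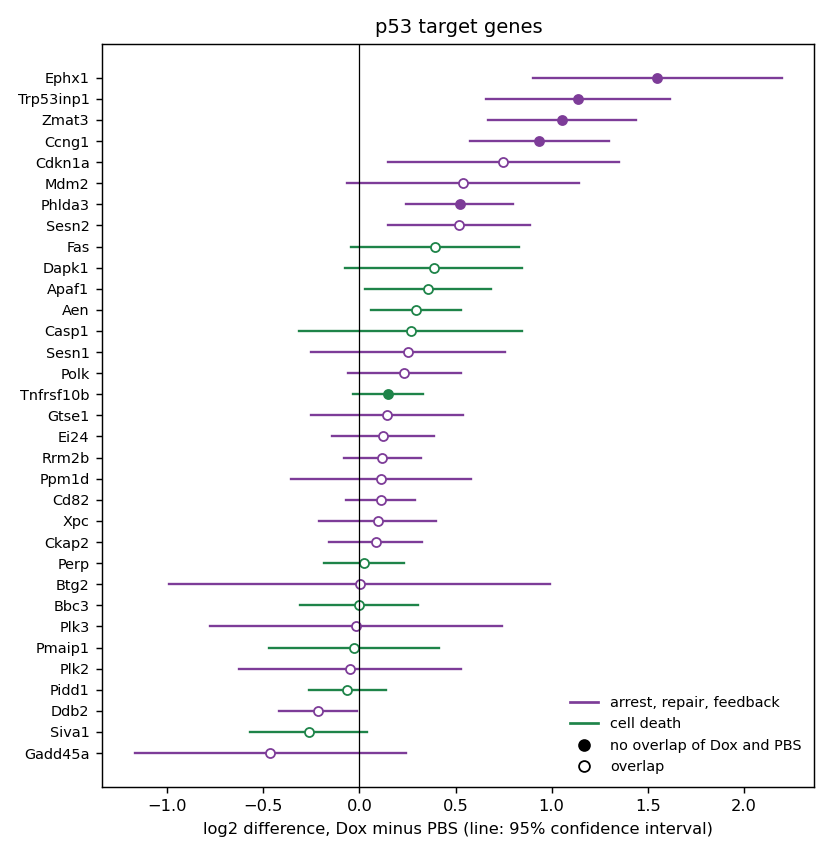
Log2 difference of Dox minus PBS (x axis) of each measured p53 target (y axis, 1 probe set per gene), with the 95% confidence interval of the limma fit as a line; purple marks genes of arrest, repair and feedback and green genes of cell death, and filled points mark genes whose groups do not overlap. Ephx1, Trp53inp1, Zmat3 and Ccng1 lie at the top, and Gadd45a, at -0.46, at the bottom.

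The p53 response element was looked for near these genes, because its presence is known for some of them. The motif is a pair of adjacent decamers, searched with at most 1 departing letter among its 20 bases, within 250 bases before to 50 bases after each RefSeq start (GRCm38.p6). Of the 36 genes of both p53 lists, 28 had a window and 3 of them held the element, which 29 of all 32851 windows held (0.0883%). Capitals mark the C and G at the core of each decamer in chr11:40755462-40755481 (Ccng1, minus strand), chr17:29090928-29090947 (Cdkn1a, plus strand) and chr15:85859945-85859964 (Gtse1, plus strand).
Ccng1: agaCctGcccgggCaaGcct
Cdkn1a: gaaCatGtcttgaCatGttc
Gtse1: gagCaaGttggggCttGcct
The element began 195 bases before the start of Ccng1, 51 before an annotated start of Cdkn1a and 1 before that of Gtse1. In Dox the differences of these genes were 0.83, 0.75 and 0.14, and only those of Ccng1 were without overlap. A match is a description of the letters, and the p53 lists were drawn up from known targets with earlier results of these data known.

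The other 6 of the 10 genes act outside the core p53 lists. Lamp2, a protein of the lysosomal membrane, read 9.89, 9.79, 10.02 and 10.09 in Dox and 9.44, 9.39, 9.45 and 9.45 in PBS, higher by 0.52 ± 0.09 (adjusted p = 0.382, limma). The PBS tumours were nearly equal, and its 4 probe sets differed by 0.22 to 0.52. Dram2, a modulator of autophagy, read 8.80 to 9.17 in Dox and 8.26 to 8.62 in PBS, higher by 0.58 ± 0.12. Vldlr, a lipoprotein receptor, read 9.96 to 10.50 in Dox and 8.96 to 9.68 in PBS in 1434465_x_at, higher by 0.92 ± 0.17, whereas its other probe sets differed by 0.97, 0.37 and 0.18. Cd80, a costimulatory ligand of antigen-presenting cells, read 5.65 to 6.22 in Dox and 4.61 to 5.37 in PBS, higher by 0.98 ± 0.18. Its other probe sets differed by 0.52, 0.36 and -0.03. Vegfd, a growth factor of lymphatic vessels, read 9.09 to 9.36 in Dox and 8.13 to 8.88 in PBS, higher by 0.75 ± 0.15. Rassf5, a Ras-binding protein, was higher by 0.59 ± 0.11.

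Of the genes lower in Dox other than red cell genes, 8 were named by the rule, each without overlap and none past the threshold. Their differences lay between -0.61 and -0.36, with adjusted p between 0.52 and 0.807 (limma). The rule chose them by lowest p, which itself favours a lack of overlap. Mtm1, a phosphatase of phosphoinositide lipids, read 10.11, 10.21, 10.46 and 10.21 in Dox and 10.86, 10.91, 10.63 and 10.83 in PBS, lower by 0.56 ± 0.11. Its other probe sets differed by -0.52 and 0.25. Fubp1, a DNA-binding protein that acts on Myc transcription, read 6.28, 6.24, 6.44 and 6.38 in Dox and 6.66, 6.78, 6.92 and 6.97 in PBS, lower by 0.50 ± 0.10. Ahcy, which removes S-adenosylhomocysteine, read 11.35 to 11.65 in Dox and 11.89 to 11.98 in PBS, lower by 0.41 ± 0.09. Ier5l, of the immediate early response family, was lower by 0.61 ± 0.14, Nudt4, a phosphohydrolase, by 0.55 ± 0.13, and Ermp1, a peptidase of the endoplasmic reticulum, by 0.45 ± 0.10. Zfp428 and Npepl1 were lower by 0.38 and 0.36.

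Cell cycle genes were lower in Dox by small amounts. All 27 measured genes of G2/M and mitosis were below 0, between -0.46 and -0.18, with a median of -0.28, and 0 rose or fell. In 4 of the 27 every Dox tumour lay below every PBS tumour, compared with 263 of all 12393 genes. Ccna2, cyclin A2, read 11.26, 10.94, 11.33 and 11.42 in Dox and 11.60, 11.83, 11.70 and 11.65 in PBS, lower by 0.46 ± 0.12 (adjusted p = 0.834, limma). Kif11, a motor of the mitotic spindle, was lower by 0.39 ± 0.12 and Cenpe, a kinetochore motor, by 0.44 ± 0.14. The list mean over the PBS level was -0.21, -0.49, -0.19 and -0.27 in Dox and 0.05, 0.14, 0.01 and -0.20 in PBS, so that Dox replicate 2 was the lowest and PBS replicate 4 reached the Dox tumours. Genes of 1 list are not independent observations, and the lists were chosen with earlier results of these data known.

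Genes of S phase and DNA repair were less even. Of 26 measured genes of DNA replication, 21 were below 0 with a median of -0.22, and the list mean stood at -0.57 in Dox replicate 2 against -0.17 to -0.02 in the other Dox tumours. Rfc4, a subunit of the clamp loader, was lower by 0.60 ± 0.25. Mcm5, of the replicative helicase, was lower by 0.37 ± 0.16 and Pcna, the sliding clamp, by 0.23 ± 0.11. The last 2 were the only ones of the 26 without overlap, compared with 263 of all 12393 genes lower in every Dox tumour. Of 20 genes of DNA repair and checkpoints, 16 were below 0 with a median of -0.08, and H2ax, the histone marked at broken DNA, was lower by 0.26 ± 0.10. Mki67, a marker of dividing cells, read 9.29, 9.83, 9.56 and 9.27 in Dox and 9.85, 9.80, 9.99 and 9.42 in PBS, a difference of -0.28 ± 0.16 with overlap.

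The targets and transporters of the drug itself showed no change past the threshold. Top2a, the topoisomerase II of dividing cells, read 11.03, 10.71, 10.78 and 10.60 in Dox and 11.11, 11.44, 10.94 and 10.41 in PBS, a difference of -0.19 ± 0.20 (95% interval -0.64 to 0.26). Top2b, the form found also in resting cells, differed by 0.13 ± 0.13, and by -0.027 without the 3 arrays of high muscle signal. The efflux pumps Abcb1a and Abcb1b, which carry doxorubicin out of cells, differed by 0.23 ± 0.15 and 0.20 ± 0.13. Their intervals ran from -0.11 to 0.58 and from -0.09 to 0.49, so that changes within those bounds could not be told from none with these arrays.

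No gene of the metabolic and stress lists below passed the threshold, and the list medians ran from -0.35 to -0.02. Of 16 genes of cholesterol and lipid synthesis, 15 were below 0, with a median of -0.35. Fdps, farnesyl diphosphate synthase, read 10.34, 11.01, 10.50 and 10.75 in Dox and 11.16, 11.26, 11.48 and 11.07 in PBS, lower by 0.59 ± 0.15 (adjusted p = 0.834, limma) without overlap. Sqle and Cyp51, later enzymes of the pathway, were lower by 0.64 ± 0.31 and 0.62 ± 0.30, and the list mean was near the PBS level in Dox replicate 2 (-0.01) and at -0.59, -0.48 and -0.23 in Dox replicates 1, 3 and 4. In PBS it was -0.13, 0.20, 0.20 and -0.28, so that PBS replicate 4 lay below Dox replicates 2 and 4. Of 21 mitochondrial respiratory chain genes 19 were below 0, with a median of -0.08. Among the antioxidant genes, Cat, catalase, was higher by 0.34 ± 0.09 without overlap, and the metallothioneins Mt1 and Mt2 by 0.84 ± 0.34 and 0.73 ± 0.24. Txnip, which binds thioredoxin, was higher by 0.41 ± 0.16. Over the 19 measured antioxidant genes, however, 13 were below 0, with a median of -0.09 and 0 past the threshold, and Gsr, glutathione reductase, was lower by 0.39 ± 0.17 and Gclm, of glutathione synthesis, by 0.23 ± 0.10. The 22 genes of the responses to unfolded protein and to integrated stress were split, with 10 above 0, 12 below, a median of -0.02 and 0 past the threshold. Dnajb9, a chaperone of the endoplasmic reticulum, was higher by 0.39 ± 0.11 and Phgdh, the first enzyme of serine synthesis, was lower by 0.23 ± 0.08, both without overlap.

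In the lists of immune cells and responses, single tumours stood apart. Of 29 interferon response genes 27 were above 0 with a median of 0.20 and 0 past the threshold. The list mean was 0.49, -0.61, 0.10 and 0.81 in Dox and -0.32, 0.67, -0.29 and -0.06 in PBS, so that both groups held high and low tumours and Dox replicate 2 was the lowest of the 8. Dox replicate 4 was also the highest for T and natural killer cell genes (0.86), mast cell genes (1.12) and neutrophil genes (0.80). Lcn2, an iron-binding protein of neutrophils, read 6.07, 6.54, 5.76 and 8.57 in Dox and 5.18, 5.71, 6.14 and 5.88 in PBS, a difference of 1.01 ± 0.53 in which Dox replicate 4 stood alone. The neutrophil list was split, with 6 of 11 genes above 0 and 5 below, a median of 0.15 and a lowest difference of -0.39. Hdc, which makes histamine in mast cells, was higher by 0.60 ± 0.21 with overlap, and 11 of 12 mast cell genes were above 0. The mast cell list mean was 0.06, 0.27, -0.41 and 1.12 in Dox and 0.08, -0.43, 0.33 and 0.02 in PBS, so that the groups overlapped.

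Most vessel and macrophage genes were above 0 by small amounts, and their list means overlapped between the groups. Of 15 endothelial genes 13 were above 0, with a median of 0.19 and 0 past the threshold. Plvap, a protein of endothelial openings, read 9.07, 9.27, 9.41 and 9.45 in Dox and 8.76, 8.67, 9.02 and 8.29 in PBS, higher by 0.61 ± 0.16 (adjusted p = 0.834, limma) without overlap. Emcn, a surface glycoprotein of veins and capillaries, was higher by 0.41 ± 0.14, while Cd34 differed by -0.22 ± 0.12. The endothelial list mean was -0.01, 0.32, 0.25 and 0.19 in Dox and 0.04, 0.03, 0.14 and -0.21 in PBS, so that Dox replicate 1 lay below PBS replicates 1 to 3. Adgre1, the F4/80 antigen, was higher by 0.46 ± 0.15, the highest difference of 17 macrophage genes. Of these genes 14 were above 0 and 3 below, with a median of 0.26 and a lowest difference of -0.465. Their list mean was 0.31, 0.09, 0.19 and 0.18 in Dox and -0.16, -0.08, 0.05 and 0.19 in PBS, so that PBS replicate 4 lay among the Dox tumours. Nfkbia, an inhibitor of NF-kB, was higher by 0.37 ± 0.10 and Dcn, the matrix protein decorin, by 0.31 ± 0.10, both without overlap. Each was the only gene of its list without overlap, compared with 213 of all 12393 genes higher in every Dox tumour. Of 24 inflammatory and NF-kB genes 16 were above 0 and 8 below, with a median of 0.06. Of 16 fibroblast and pericyte genes 11 were above 0 and 5 below, with a median of 0.08 and a lowest difference of -0.95.

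**Figure D4:**
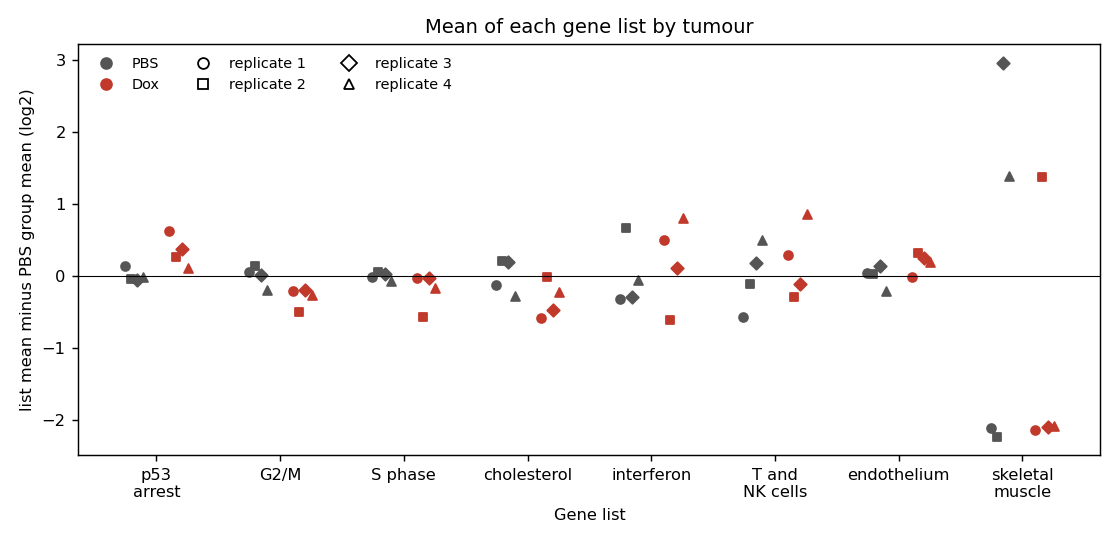
Mean of each gene list in a tumour minus its mean in the PBS group (y axis, log2) for 8 lists (x axis); colour marks PBS and Dox, and the marker shape the replicate number, which only names a tumour. Skeletal muscle genes split the tumours into 3 high and 5 low. For G2/M genes every Dox tumour lies at or below -0.19, as does PBS replicate 4 at -0.20.

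The free drug and CP-Dox were set against each other in a fit over all 12 arrays, since the comparisons of each with PBS share the PBS tumours. Their doses are not stated in the sources used here, and both were measured at 48 h. In CP-Dox minus Dox, 34 probe sets passed the threshold, 9 higher in CP-Dox (0.0398%) and 25 lower (0.11%). Of 35 probe sets, the 7 that fell and others named by the rule, 2 were among them. Pmaip1 read 8.68, 7.55, 8.24 and 8.05 in CP-Dox and at most 6.72 in Dox and PBS, and rose by 1.86 (95% interval 1.33 to 2.38, adjusted p = 0.0279, limma) against Dox. Mtm1 read 8.79, 9.51, 8.02 and 8.87 in CP-Dox, below every Dox tumour, and fell by 1.45 (interval -1.97 to -0.94, adjusted p = 0.0435). Outside the 35, the list genes Phgdh and H2ax named above also fell in CP-Dox against Dox. Their differences were -0.92 (1437621_x_at, adjusted p = 0.00714, limma) and -0.86 (adjusted p = 0.0382).

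Some of the other p53 targets were higher in CP-Dox than in Dox without passing. Ephx1 read 11.04, 9.89, 11.71 and 11.05 in CP-Dox, higher than in Dox by 1.52 (interval 0.71 to 2.34, adjusted p = 0.101, limma). Ccng1 (1450017_at) was higher by 0.99, Trp53inp1 by 1.37, Cdkn1a by 0.75 and Mdm2 by 0.81, while Zmat3 differed by 0.26 (interval -0.18 to 0.69) and Siva1, a target that promotes cell death, by -0.11. The globin probe set 1417714_x_at differed between the drug forms by 1.21, with an interval from -0.43 to 2.84. These calls rest on the arrays in the fit. The 8 CP-Dox and Dox arrays alone gave 0 calls, leaving out CP-Dox replicate 1, Dox replicate 1 or Dox replicate 3 gave 0 and leaving out CP-Dox replicate 3 gave 1. Without CP-Dox replicate 2, which correlated with its group at 0.956 against 0.9754 to 0.9802 for the other 3, 2043 passed, including 15 of the 35. Without CP-Dox replicate 4, Dox replicate 2 or Dox replicate 4, 13, 11 and 19 passed. Keratinocyte markers over the PBS level were at 2.54 and 3.65 in CP-Dox replicates 1 and 3 and between -0.11 and 0.08 in the other CP-Dox and the Dox tumours, and skeletal muscle markers were at -0.59, 0.31, 1.29 and 1.40 in CP-Dox against -2.14, 1.38, -2.10 and -2.08 in Dox. The part of either list in these differences was not tested.

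**Figure D5:**
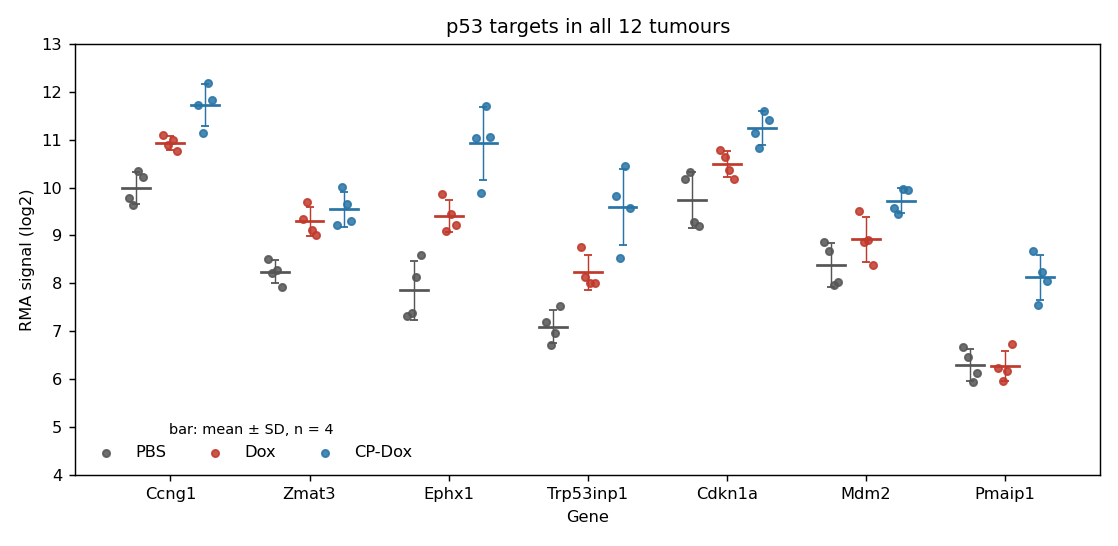
RMA signal on a log2 scale (y axis) of p53 targets (x axis) in 4 PBS, 4 Dox and 4 CP-Dox tumours; points are tumours, bars the mean and whiskers the SD. Ccng1 (1420827_a_at), Zmat3, Ephx1 and Trp53inp1 are higher in all Dox than in all PBS tumours, and Pmaip1 is higher in all CP-Dox tumours than in all others.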

How the data were processed

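Gene expression was measured in 8 tumours (4 Dox, 4 PBS; 4 CP-Dox tumours for 1 further comparison), 1 Affymetrix array each. The authors deposited log2 signals from RMA, a method of background correction, quantile normalization and probe summary. RMA and Partek are named in the submitters' processing notes, with versions not given in the sources used here. Per the labels' protocols, tumours were kept in RNAlater and RNA was purified with an RNeasy kit and labelled as biotinylated cRNA.

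Of 22690 probe sets, 64 controls were left out and 22626 tested without a filter: 20380 with 1 symbol (12393 genes), 691 with several and 1555 with none; gene names came from the platform annotation. Two-sided limma 3.58.1 tests (lmFit, eBayes, R 4.3.3) on log2 values compared Dox with PBS over these 8 arrays, adjusted by Benjamini-Hochberg over all probe sets, with a threshold of 0.05. CP-Dox minus Dox was fitted over 12 arrays. The fit was tested on simulated data. Figures used matplotlib 3.10.9 (Python 3.11.15). Precision is limited by the number of arrays.

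The members, the 34 gene lists (560 of 614 genes measured, each by its probe set with the highest mean) and the tests were chosen with earlier results of these data known. By the rule for named genes, these are, among probe sets with 1 symbol, the 12 largest rises and falls past the threshold without overlap, 1 per gene, filled up to 10 by lowest p where fewer passed, up to 4 members of lowest p per list described, and Cdkn1a, Mdm2, Ccng1, Trp53inp1, Pmaip1, Bax, Top2a, Top2b, Mki67, Ephx1, Txnip, Abcb1a and Abcb1b. Other members, and probe sets with several symbols, were singled out after their values were seen. Alternatives were other normalizations, probe set filters, variance models, weights, thresholds, the replicate number as a block, muscle markers as a covariate or without the 3 arrays high in them, and leaving out each array.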

Additional observations from a re-analysis of the deposited data

Results flagged for a closer look

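In 70 groups of 4 tumours (35 named probe sets, Dox and PBS), 2 had 1 tumour far from the others, measured as its gap to the nearest tumour over the range of the group. Chance alone sets about 1 in 20 such groups apart. Ermp1 (1433702_at) read 10.11 in Dox replicate 4, with the next Dox tumour at 10.38 (ratio 0.879). Ier5l (1419066_at) read 8.63 in Dox replicate 1, with the next at 8.43 (ratio 0.869).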

How the results depend on the processing

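The count of 7 falls and 0 rises was the same after another quantile normalization, median centring, an intensity trend, robust or weighted fits, a muscle covariate and thresholds of 0.01 and 0.1. It was 4 without the dimmest 40% of probe sets, 3 with single-symbol probe sets, 2 with 1 probe set per gene and 0 over all 12 arrays (limma), the first 3 because fewer of the 7 were tested. Without the 3 arrays of high muscle signal 6 passed, 1 of them the rise of Ephx1. Leaving out 1 array gave 6 to 8 calls, with 6 to 7 falls and 0 to 1 rises; without PBS replicate 1 the added rise was 1422179_at, which has no symbol.

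With the replicate block 7 probe sets passed, the same 7. Same-numbered tumours deviated with correlations of 0.208, -0.0511, -0.266 and 0.311, and 2 of 4 Dox tumours matched their own number best, so that the numbers were not taken to pair the tumours. For CP-Dox minus Dox, 34 passed, 14 with the replicate block, 0 in the 8 arrays alone, and 0 to 2043 when 1 array was left out.

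Over 160 named or list probe sets, 3125 alternative values kept direction and side, 10 lost and 1 gained the threshold, and 18 turned in sign. Pmaip1 lay between -0.18 and 0.10 as single arrays were left out, with 0.07, 0.009, 0.10 and 0.03 where it turned, and Top2b was at -0.027 without the 3 muscle-high arrays.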

Other observations

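Matrix and heat shock genes were not described above. Of 20 genes of extracellular matrix and its remodelling, 16 were above 0 (median 0.18), and 0 rose or fell. Lox, which crosslinks collagen, was higher in Dox by 0.46 ± 0.20 and Mmp14, a membrane-bound metalloproteinase, by 0.41 ± 0.17, while Mmp13, a collagenase, was lower by 0.66 ± 0.31. The collagens Col1a2 and Col3a1 differed by 0.13 and 0.003. Hspa1b, an inducible heat shock protein, was higher by 0.62 ± 0.25 and Hspa8, its constitutive relative, differed by -0.07, in a list of 13 with a median of 0.03. Adipocyte genes had a median of 0.17 over 9 members, with the list mean at 0.73 in Dox replicate 4.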
